A study of Mus musculus with 12 samples.

Results

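Small nucleolar RNA (snoRNA) genes with measurable values in embryonic mouse pallium are described here. They are the gene symbols starting with Snord (C/D class) or Snora (H/ACA class) whose mean over the 12 libraries was at least 1 TPM, a length-scaled share of the library that sums to 1000000. The rule kept 32 of 138 snoRNA symbols, 13 of 98 Snord and 19 of 40 Snora genes, among 54735 symbols in all. Total RNA was sequenced from the dorsal telencephalon of C57/Bl6 embryos at E13.5, with 4 embryos in each of 3 genotypes. Control embryos were Rnu11wt/flx::Trp53wt/wt::Emx1-Cre+, so they had 1 floxed allele of Rnu11, the gene of the U11 RNA of the minor spliceosome. The cKO embryos were Rnu11flx/flx::Trp53wt/wt::Emx1-Cre+. The dKO embryos were Rnu11flx/flx::Trp53flx/flx::Emx1-Cre+ and so also lacked Trp53, the gene of p53, where the recombinase had acted. All 12 embryos carried Emx1-Cre, which is active in pallial progenitors and their progeny, so vessels, microglia and meninges in the same tissue kept the genes. The labels do not say how embryos fall into litters, so litters enter no test. The p-values below set group differences against the spread between these embryos.

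Most snoRNAs are cut from introns of host genes after splicing, and the rest are made from genes of their own. C/D snoRNAs bind fibrillarin, NOP56, NOP58 and SNU13 and guide methylation of ribose in ribosomal and spliceosomal RNA, while H/ACA snoRNAs bind dyskerin, NHP2, NOP10 and GAR1 and guide the change of uridine to pseudouridine. A few, among them U8, U13, U22 and U17, are needed for or linked to processing of the ribosomal RNA precursor. The ends of each class carry short boxes that the core proteins recognise.

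The sequences of the 6 genes that passed the test in any comparison are shown first, because the results turn on them. They are GENCODE M21 transcripts on mm10 (GRCm38), read 5′ to 3′ on the RNA's own strand. Capitals mark a C box (TGATGA starting in the first 25 bases) and a D box (CTGA starting in the last 15 bases) in Snord genes, and the ACA box (ACA starting in the last 8 bases) in Snora genes. Snord118 (U8, chr11:69073427-69073561, plus strand) lies in no other gene of its strand. Snord22 (U22, chr19:8725866-8725991, plus strand) overlaps an exon of an Snhg1 transcript. Snord8 (chr14:52209785-52209894, minus strand) lies in an intron of Chd8. Snora78 (chr17:24719676-24719803, minus strand) lies in an intron of Snhg9, Snora24 (chr3:123507937-123508066, minus strand) overlaps an exon of an Snhg8 transcript, and Snora21 (chr11:97781639-97781775, minus strand) lies in an intron of the ribosomal protein gene Rpl23.
Snord118: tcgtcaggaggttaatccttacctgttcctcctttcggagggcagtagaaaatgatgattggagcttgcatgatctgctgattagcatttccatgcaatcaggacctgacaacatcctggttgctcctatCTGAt
Snord22: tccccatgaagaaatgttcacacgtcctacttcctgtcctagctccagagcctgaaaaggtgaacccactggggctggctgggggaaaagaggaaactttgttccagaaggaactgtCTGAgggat
Snord8: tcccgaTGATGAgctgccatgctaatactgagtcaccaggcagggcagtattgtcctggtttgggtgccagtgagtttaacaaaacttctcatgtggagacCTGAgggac
Snora78: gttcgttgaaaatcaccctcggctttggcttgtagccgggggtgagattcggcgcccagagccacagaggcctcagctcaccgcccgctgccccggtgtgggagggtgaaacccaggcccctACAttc
Snora24: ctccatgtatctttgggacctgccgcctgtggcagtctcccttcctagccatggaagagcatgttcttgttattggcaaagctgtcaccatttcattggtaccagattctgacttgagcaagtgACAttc
Snora21: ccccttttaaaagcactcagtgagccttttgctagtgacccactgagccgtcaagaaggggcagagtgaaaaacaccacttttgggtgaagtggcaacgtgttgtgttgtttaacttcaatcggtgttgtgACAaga
C and D boxes were both found in 10 of the 13 Snord genes of the set (76.9%), against 68 of 98 Snord symbols (69.4%) and 0 of 1374 small nuclear RNA genes of the annotation. They were not both found in Snord43, Snord22 and Snord118. GENCODE M21 types the Snord43 entry as a miRNA, and it is counted here by its symbol, as the rule reads. An ACA box was found in 19 of 19 Snora genes of the set, 38 of 40 Snora symbols (95%) and 74 of the 1374 small nuclear RNA genes (5.39%).

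Several facts about the values bear on every result. The genes were chosen by their mean TPM over the 12 libraries, so that mean is given as a description, with no test: just inside the limit were Snord118 at 1.52 TPM, Snord7 at 1.82 and Snord23 at 1.98, and just outside were Snora19 at 0.822, Snora26 at 0.400 and Snora3 at 0.343. The same mean is the filter of the test, so all 32 genes were tested, and 26 of them had a mean of at least 1 TPM in all 3 groups, 4 in 2 groups and 2 in 1 group. Values were above 0 in all 12 libraries for 22 of the 32 genes, 6 Snord and 16 Snora. The other 10 were listed at 0 in at least 1 library, and a listed 0 can be a failed estimate as well as absence. The unit does not record how deeply a library was sequenced, so depth is unknown. The genotype labels could be checked on the targeted genes: Rnu11 stood at 521 to 725 TPM in the control embryos, 115 to 159 in the cKO embryos and 142 to 199 in the dKO embryos, and Trp53 at 2.63 to 6.37, 3.92 to 4.83 and 0.920 to 1.49. The 9 pallial markers all passed the filter, and their summed level was 174 to 189 TPM in the control embryos, 172 to 198 in the cKO embryos and 114 to 168 in the dKO embryos. The summed 4 microglia markers were at 3.50 to 4.02, 9.25 to 12.7 and 3.80 to 4.10 TPM, and the 4 vessel and pericyte markers at 5.90 to 7.30, 11.3 to 14.8 and 7.45 to 11.4 TPM. In the same order, the 3 mesenchyme markers were at 16.7 to 28.2, 29.6 to 35.3 and 25.2 to 38.6 TPM, and the 6 ventral telencephalon markers at 1.50 to 2.13, 2.94 to 4.74 and 1.41 to 3.33. The 3 choroid plexus markers were at 37.5 to 94.97, 64.3 to 234 and 60.7 to 278 TPM, and the 4 red blood cell markers at 1445 to 2307, 1734 to 2300 and 1573 to 2298. Their part in the snoRNA values was not tested. In bulk tissue, fewer cells of a type and less RNA per cell cannot be told apart.

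Length went with having a value in the C/D class, and strand went with the level, most clearly in the H/ACA class. None of the 65 Snord genes shorter than 94 nt had a value above 0 in any library, while 8 of 28 Snord genes of 94 to 111 nt and all 5 longer ones did. The 98 Snord symbols had a median length of 84.5 nt, the 13 in the set 110 nt. Among them the 17 Snord116 symbols, a family in the Snhg14 locus, are all 94 nt long, and 1 of them had a value. The 4 Snord14 genes (U14), of 86 to 90 nt, were listed at 0 in all 12 libraries. Among Snord genes of 94 nt or longer, 3 of 6 on the plus strand and 10 of 27 on the minus strand had values. The 27 include the 17 Snord116 symbols, of which 1 had a value. The highest of these Snord means was 6.64 TPM on the plus strand and 1813 TPM on the minus strand. In Snora genes 18 of 18 on the minus strand of their chromosome had values, 17 of them at a mean of 1 TPM or more, with a median of 160 TPM. Of 22 Snora genes on the plus strand 11 had values and 2, Snora74a and Snora23, reached 1 TPM. In the set, 27 genes lie on the minus strand, with a median of 156 TPM, and 5 on the plus strand (Snora74a, Snora23, Snord22, Snord118 and Snord7), of which the highest was Snora74a at 9.25 TPM. A rank by level below therefore also reflects strand, and results rest on comparisons of a gene with itself across libraries. The labels name a stranded library kit but not how strand entered the counting, and the cause of the imbalance was not tested.

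**Figure D1:**
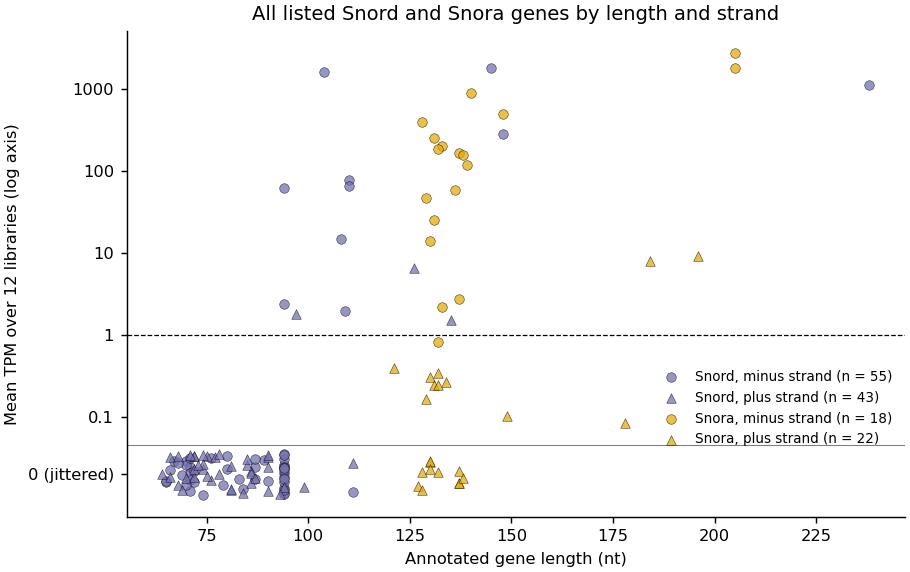
Mean TPM over the 12 libraries (log axis, zeros jittered below the grey line) against annotated length for the 98 Snord and 40 Snora symbols, with circles for the minus and triangles for the plus strand. No Snord gene under 94 nt has a value, and all plus strand genes stay below 10 TPM, the highest at 9.25.

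The levels spanned from Snora73a, at a mean of 2726 TPM over the 12 libraries, to Snord118 at 1.52. Snora73a and Snora73b (U17, also called E1), followed by Snora7a at 886, Snora57 at 497 and Snora78 at 398 TPM, led the H/ACA class. Snord15b at 1813, Snord13 (U13) at 1595, Snord17 at 1114, Snord15a at 282 and Snord89 at 78.5 TPM led the C/D class. All 10 are on the minus strand. Together 5 genes were above 1000 TPM on average, 15 above 100 and 9 under 10. Summed over the 32 genes, the share of the library was 1.13% to 1.61% in control, 0.965% to 1.31% in cKO and 1.18% to 1.37% in dKO, so the ranges overlapped.

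The summed level of the 13 Snord genes was 4412, 4211, 7290 and 6528 TPM in the 4 control libraries, 5219, 5092, 3479 and 3640 in the cKO embryos and 5457, 4326, 5929 and 4893 in the dKO embryos. Control 3 and 4 were highest and cKO 3 and 4 lowest, and the 3 groups overlapped. The 17 Snora genes other than the U17 pair summed to 3053, 2920, 4144 and 3827 TPM in the control embryos, 3137, 3032, 1963 and 2207 in the cKO embryos and 2858, 2832, 3219 and 3112 in the dKO embryos. The same 4 libraries were at the extremes, while cKO 1 and 2 lay within the control range. The U17 pair summed to 4549 ± 233 TPM in the control embryos, 4502 ± 222 in the cKO embryos and 4566 ± 169 in the dKO embryos (SD, n = 4 each), and its lowest libraries were control 2 at 4200 and cKO 3 at 4211 TPM.

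Those 4 libraries also stood apart gene by gene. Among the 22 genes with a value in every library, 20 were below their own mean in cKO 3 and 19 in cKO 4, where the median deviation of log2(TPM + 1) was -0.44 and -0.31. In control 3 and 4 the median deviation was 0.34 and 0.28, and 4 and 1 of the 22 genes were below their mean. In the other 8 libraries the median deviation lay between -0.12 (control 2) and 0.16 (dKO 3). Counts, medians and calls below are therefore also given without these libraries.

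**Figure D2:**
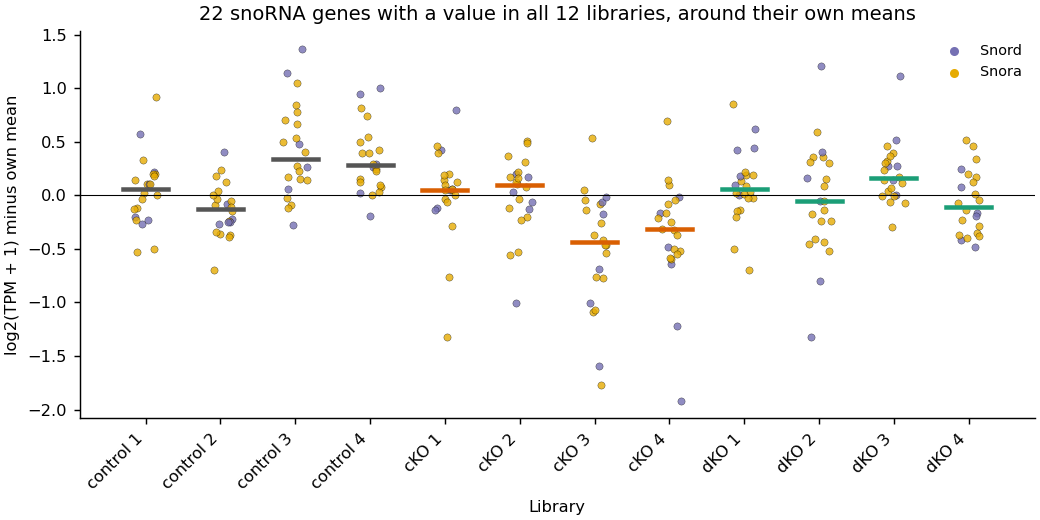
Deviation of log2(TPM + 1) from the gene's own mean for the 22 snoRNA genes with a value in all 12 libraries, 1 point a gene, with the library median as a bar. The bars of cKO 3 and cKO 4 are lowest, at -0.44 and -0.31, and those of control 3 and control 4 highest, at 0.34 and 0.28.

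Loss of Rnu11 was examined by comparing cKO with control. Of the 32 snoRNA genes 4 were lower in cKO (Snord118, Snord8, Snora78 and Snora24) and 0 higher, by limma with Benjamini-Hochberg adjusted p under 0.05 over 11764 genes. That is 12.5% of the set called lower, where 1.09% of all genes tested were called lower and 34.3% higher. After median-shift centring, which moves the median gene to about no change, the split over all genes went from 4035 higher and 128 lower to 438 and 348. Unadjusted p was under 0.05 for 10 of the 32, against 48.3% of all genes. The median change was -0.21 on the log2(TPM + 1) scale for Snord genes and -0.37 for Snora genes, and 0.25 for all genes tested. The class medians were -0.45 and -0.62 after centring, and -0.36 and -0.52 after rescaling to an equal protein-coding sum. Changes were below 0 for 25 of the 32 genes, and the groups did not overlap, with cKO lower, for 4 genes (Snord118, Snord8, Snora24 and Snora68), where 0.91% of all genes were separated in that direction, and for 0 in the higher direction (32.7% of all genes). The other 302 tested single-exon genes of 94 to 238 nt like the set, of any type but protein-coding, had a median change of 0. Of these 10 were called higher and 11 lower (3.31% and 3.64%). Without cKO 3 and 4, 1 of the 32 genes was called lower (Snord118) and the medians were -0.03 and -0.16. Without control 3 and 4, 2 were called lower, of which Snord118 alone was among the 4 named above, and the medians were -0.13 and -0.15.

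**Figure D3:**
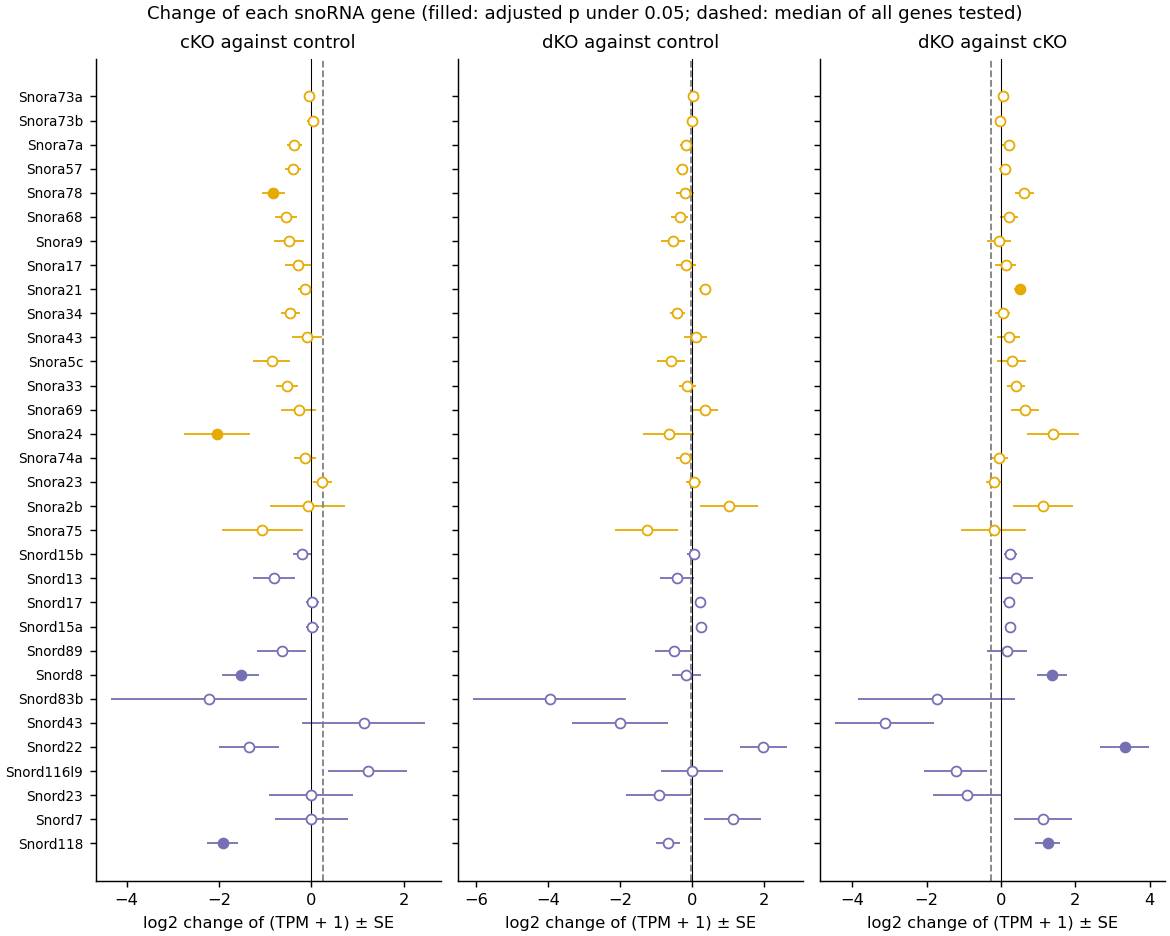
Difference in mean log2(TPM + 1) ± SE for each of the 32 snoRNA genes in the 3 comparisons, by class and level, with filled points for adjusted p under 0.05 (limma). In cKO against control 25 of the 32 points lie below 0, while the dashed median of all genes tested is at 0.25.

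Among the snoRNAs of ribosomal RNA precursor processing, Snord118 was the only gene that passed the test in cKO against control. It encodes U8, which is needed to mature the RNAs of the large ribosomal subunit. It was listed at 3.44, 2.08, 1.95 and 4.14 TPM in the control embryos, while the 4 cKO libraries listed it at 0 and the dKO libraries at 2.18, 0, 2.17 and 2.23 TPM. Every control library had a value and no cKO library did. The fitted change was -1.92 ± 0.33 (SE) on the log2(TPM + 1) scale (limma, adjusted p = 0.00198), and since cKO is listed at 0 no fold is given. The call was kept without cKO 3 and 4 (adjusted p = 0.0238) and without control 3 and 4 (adjusted p = 0.0254). The level is close to the limit of 1 TPM and lies on the plus strand, where snoRNA values were low. The dKO values above 0 were nearly equal, at 2.17 to 2.23 TPM, and values this low may each rest on very few reads. The number of reads behind these values is unknown, so the test could not take counting error into account.

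Of the other snoRNAs of precursor processing, Snord13 (U13, chr8:31149864-31149967, minus strand, in no other gene) acts on the small subunit RNA. It stood at 1204, 1220, 3133 and 2730 TPM in the control embryos, 1904, 1623, 469 and 906 in the cKO embryos, and 1417, 816, 2033 and 1683 in the dKO embryos. Its highest values were in control 3 and 4 and its lowest in cKO 3, and the groups overlapped (cKO against control -0.81 ± 0.46, limma adjusted p = 0.174). Snora73a stood at 2735, 2801, 2673 and 2737 TPM in the control embryos and 2652, 2514, 2571 and 2905 in the cKO embryos, a change of -0.04 ± 0.10 (adjusted p = 0.730). Snora73b stood at 1942, 1399, 2010 and 1897 TPM in the control embryos and 2071, 1946, 1640 and 1707 in the cKO embryos, a change of 0.03 ± 0.13 (adjusted p = 0.864). Both groups overlapped for these 3 genes. Snord22 (U22), which acts on the small subunit RNA, is described with the double mutant below.

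Snora73a (chr4:132352775-132352979, minus strand) and Snora73b (chr4:132352322-132352526, minus strand) are near copies. Their sequences are shown because they bear on how far the values can be told apart. Set side by side without gaps, 198 of 205 positions are equal, and capitals mark the 7 that differ.
Snora73a: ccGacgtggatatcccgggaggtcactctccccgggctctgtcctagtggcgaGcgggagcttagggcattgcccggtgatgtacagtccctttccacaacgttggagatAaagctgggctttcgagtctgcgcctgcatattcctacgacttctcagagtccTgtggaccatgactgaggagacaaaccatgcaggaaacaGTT
Snora73b: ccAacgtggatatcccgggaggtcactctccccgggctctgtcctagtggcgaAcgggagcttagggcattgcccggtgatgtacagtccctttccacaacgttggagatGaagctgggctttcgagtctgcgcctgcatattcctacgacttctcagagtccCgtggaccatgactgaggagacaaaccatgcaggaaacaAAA
Reads from such copies could be split between them in the authors' counting, so the division is uncertain and the sum is the safer value. The ratio of Snora73a to Snora73b was 1.55 ± 0.31 in the control embryos, 1.46 ± 0.21 in the cKO embryos and 1.57 ± 0.24 in the dKO embryos (SD, n = 4 each).

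Of C/D snoRNAs outside that group, Snord8 was lower in cKO. It stood at 84.3, 75.1, 68.1 and 114 TPM in the control embryos, 58.8, 27.5, 27.6 and 14.2 in the cKO embryos, and 87.2, 132, 68.4 and 40.1 in the dKO embryos. All 4 cKO libraries lay below all 4 control libraries, and the cKO mean was 37.5% of control (-1.53 ± 0.40, limma adjusted p = 0.0131). The call was lost without cKO 3 and 4 (-1.04, adjusted p = 0.123) and without control 3 and 4 (-1.46, adjusted p = 0.0822). Snord8 overlaps Gm26590 on the opposite strand. The number of reads behind its values is unknown, so counting error was not taken into account for this call either.

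Other abundant C/D genes did not pass the test in cKO. Snord15b, at 1481, 1484, 2480 and 2147 TPM in the control embryos and 1639, 2005, 1583 and 1272 in the cKO embryos, changed by -0.21 ± 0.19 (adjusted p = 0.380). Snord17 stood at 1284, 1044, 913 and 965 TPM in the control embryos and 1141, 1058, 1055 and 984 in the cKO embryos, a change of 0.02 ± 0.14. Snord15a, which shares the host Rps3 with Snord15b, stood at 243, 235, 291 and 283 TPM in the control embryos and 254, 255, 276 and 276 in the cKO embryos, a change of 0.02 ± 0.14. All 3 had overlapping groups. Snord89 stood at 72.2, 56.3, 175 and 82.7 TPM in the control embryos and 118, 68.8, 41.3 and 28.3 in the cKO embryos (-0.65 ± 0.53, adjusted p = 0.336), with overlapping groups.

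In the H/ACA class Snora78 and Snora24 were lower in cKO. Snora78 stood at 433, 319, 598 and 632 TPM in the control embryos, 390, 261, 176 and 291 in the cKO embryos, and 380, 484, 375 and 434 in the dKO embryos. Control and cKO overlapped at cKO 1, and the cKO mean was 56.4% of control (-0.83 ± 0.25, limma adjusted p = 0.0240). The call was lost without cKO 3 and 4 (-0.58, adjusted p = 0.158) and without control 3 and 4 (-0.47, adjusted p = 0.230). It was also lost when control 3, control 4, cKO 2 or cKO 3 was left out alone, with adjusted p up to 0.0682. Snora78 lies opposite Rps2, a highly expressed ribosomal protein gene.

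Snora24 was lower and partly at 0. It stood at 20.4, 18.2, 16.96 and 25.5 TPM in the control embryos, 12.3, 6.51, 0 and 5.77 in the cKO embryos, and 14.99, 26.4, 3.17 and 16.9 in the dKO embryos. Every cKO library lay below every control library. The change was -2.04 ± 0.71 (limma adjusted p = 0.0412), or -1.26 (adjusted p = 0.0709) without cKO 3, the library at 0. The call was lost without cKO 3 and 4 (-1.07, adjusted p = 0.229) and without control 3 and 4 (-1.99, adjusted p = 0.160). Leaving out other single libraries ended it as well, in 8 of 12 cases in all, with adjusted p up to 0.0890.

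The remaining abundant H/ACA genes did not pass the test. Snora68 was separated without passing it, at 279, 285, 352 and 284 TPM in the control embryos and 232, 274, 167 and 160 in the cKO embryos (-0.55 ± 0.24, adjusted p = 0.0820). Snora7a stood at 804, 986, 1156 and 1034 TPM in the control embryos and 967, 920, 631 and 608 in the cKO embryos (-0.37 ± 0.17, adjusted p = 0.102). Snora57 stood at 612, 458, 590 and 644 TPM in the control embryos and 523, 478, 365 and 391 in the cKO embryos (-0.39 ± 0.17, adjusted p = 0.0834). Both overlapped between groups, and cKO 3 and 4 held the lowest values of each gene among these 8 libraries. Changes above 0 in the H/ACA class were seen for Snora73b and for Snora23 (0.23 ± 0.21, adjusted p = 0.374).

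**Figure D4:**
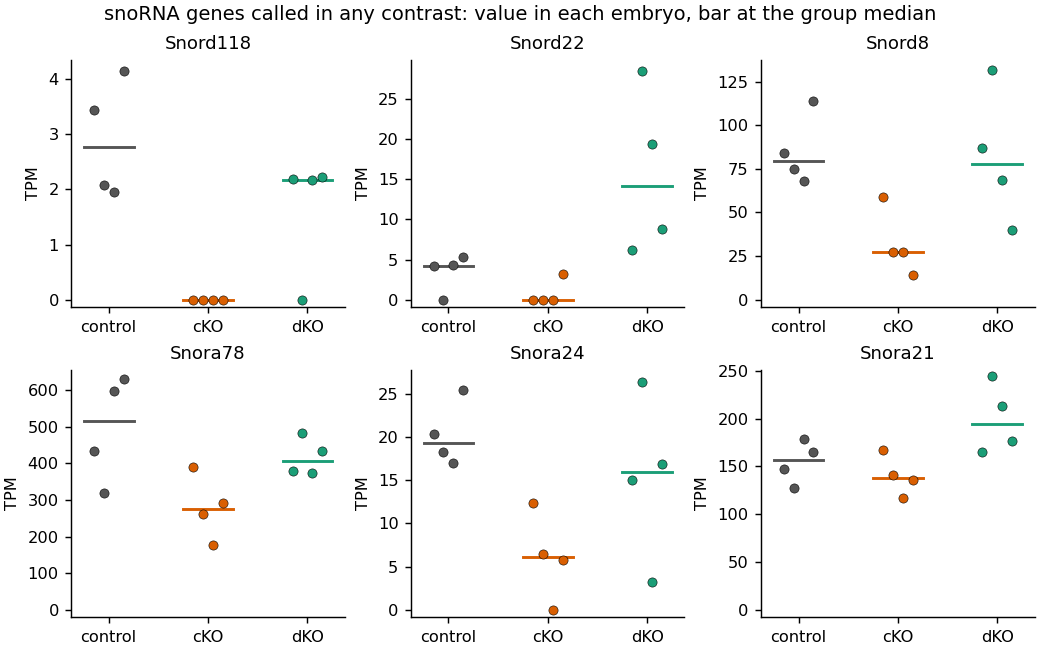
TPM in each embryo (points, embryos 1 to 4 from left to right) and group median (bar) for the 6 snoRNA genes that passed the test in any comparison; each panel has its own axis from 0. Snord118 is at 0 in the 4 cKO libraries, and Snord22 is higher in the 4 dKO libraries (6.15 to 28.4 TPM) than in any cKO library.

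Deletion of Trp53 together with Rnu11 was examined by comparing dKO with control and with cKO. Both comparisons with control use the same 4 control libraries. Against control, 0 snoRNA genes were called higher and 0 lower by limma, where 1.79% and 3.4% of all genes tested were, and unadjusted p was under 0.05 for 2 of the 32, against 20.1% of all genes. The medians were -0.16 for Snord genes, -0.17 for Snora genes and -0.01 for all genes. Without control 3 and 4 the counts were again 0, and the medians were 0.00 for both classes. Groups did not overlap for 1 gene, Snord22, higher in dKO, where 5.14% of all genes were separated in that direction, and for 0 in the lower direction (8.44% of all genes).

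Against cKO, 4 snoRNA genes were higher in dKO (Snord22, Snord118, Snord8 and Snora21) and 0 lower. All genes tested moved mostly the other way, with 0.612% called higher and 38.8% lower, or 247 higher and 451 lower genes after centring against 72 and 4564 before it. Unadjusted p was under 0.05 for 6 of the 32 snoRNA genes, against 50.9% of all genes. The median change was 0.24 for Snord genes and 0.20 for Snora genes, and -0.26 for all genes tested. Groups did not overlap for Snord22 alone, where 0.417% of all genes were higher in dKO without overlap, and 0 were separated lower (32.8% of all genes). Without cKO 3 and 4, 2 genes were called higher, of which Snord22 alone was among the 4 named above. The medians were then 0.08 and -0.09, so the H/ACA median changed sign.

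Snord22 had the largest change of the 4. It stood at 4.18, 0, 4.31 and 5.28 TPM in the control embryos, at 0, 0, 0 and 3.16 in the cKO embryos, and at 6.15, 28.4, 19.4 and 8.86 in the dKO embryos. All dKO libraries lay above all control and all cKO libraries. The change against cKO was 3.33 ± 0.65 on the log2(TPM + 1) scale (limma adjusted p = 0.00309), and 3.84 (adjusted p = 0.0121) without cKO 3 and 4. Against control it was 1.98 ± 0.65 and did not pass (adjusted p = 0.103). Its host Snhg1, a noncoding gene that carries several snoRNAs, stood at 64.2, 24.4, 21.8 and 24.6 TPM in the dKO embryos and 23.6 to 28.7 in the control embryos, so the highest Snhg1 value, in dKO 1, fell on the lowest dKO value of Snord22.

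Snord118 was at 0 in the cKO embryos and had values in 3 of 4 dKO libraries. The change against cKO was 1.26 ± 0.33 (limma adjusted p = 0.0119), and it did not pass without cKO 3 and 4 (adjusted p = 0.0752), although all cKO values are 0. Against control its change was -0.67 (adjusted p = 0.285). Snord8 was 1.37 ± 0.40 higher than in cKO (adjusted p = 0.0177), with dKO and cKO overlapping, and the call was lost without cKO 4 (1.06, adjusted p = 0.0579) and without cKO 3 and 4 (0.88, adjusted p = 0.164).

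Snora21 stood at 148, 128, 179 and 165 TPM in the control embryos, 167, 141, 117 and 136 in the cKO embryos, and 165, 244, 213 and 176 in the dKO embryos. The dKO libraries lay above 3 of the 4 cKO libraries and 1 lay just below cKO 1. The change was 0.50 ± 0.15 (limma adjusted p = 0.0231). It was lost without cKO 3 and 4 (0.36, adjusted p = 0.173) and when cKO 2, cKO 3, cKO 4, dKO 2 or dKO 3 was left out alone, with adjusted p up to 0.0589.

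Members with values in few libraries gave no call. Snord7 was listed at 21.8 TPM in dKO 1 and at 0 in the other 11 libraries, and Snord116l9 at 28.3 TPM in cKO 4 and at 0 in the other 11. Snord23 had 12.04 TPM in embryo control 1, 11.8 in embryo cKO 1 and 0 in the other 10. Each entered the set through 1 or 2 libraries. Snora75, in the nucleolin gene Ncl, had values in 4 libraries (control 1 and 2 with 10.1 and 8.99 TPM, cKO 4 with 4.89 and dKO 4 with 2.42). Snord43 and Snord83b lie in introns of Rpl3, and Snord83b was listed at 0, 93.8, 214 and 186 TPM in the control embryos, 94.03, 0, 0 and 84.97 in the cKO embryos, and 65.4, 0, 0 and 0 in the dKO embryos. Snord43 stood at 24.1, 0, 9.73 and 10.3 TPM in the control embryos, 0, 55.0, 27.6 and 42.5 in the cKO embryos, and 10.9, 0, 0 and 0 in the dKO embryos. The SE of the changes of Snord43 and Snord83b was 1.33 and 2.11, against 0.10 for Snora73a.

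Host genes were compared with the snoRNAs they hold, since an intronic snoRNA is made from the host's transcript. Of the 32 genes 27 lie in a gene of their own strand, and 25 of them have a host in the test, which gave 27 pairs with 22 hosts. Of these 22 hosts 5 were higher in cKO than in control and 0 lower, where 34.3% and 1.09% of all genes were, and their median change of 0.12 was below the 0.25 of all genes. The snoRNA was below 0 and the host above 0 in 15 of the 27 pairs, and the snoRNA's change was below its host's in 22. In dKO against control these counts were 10 and 16 of 27, and in dKO against cKO 1 and 8 of 27. The values below come from the same fit, and no test of a pair's difference was made.

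Snhg3, the noncoding host of the U17 pair, stood at 20.5, 18.9, 21.9 and 19.4 TPM in the control embryos, 38.6, 39.9, 38.6 and 55.6 in the cKO embryos and 85.0, 73.2, 42.0 and 45.2 in the dKO embryos. Both mutant groups lay above control, with means of 214% and 304% of it (1.05 ± 0.21 and 1.50 ± 0.21, limma adjusted p = 0.00379 and 0.00191). The summed U17 pair had nearly equal means in the 3 groups, as given above. Snora73a overlaps an Snhg3 exon in part, and Snora73b lies in an intron. Both also lie in introns of the protein-coding gene Rcc1, which passed the test in neither comparison with control. Rcc1 changed by -0.14 ± 0.17 in the cKO and -0.40 ± 0.17 in the dKO embryos (limma adjusted p = 0.503 and 0.205).

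Snhg9, the host of Snora78, stood at 12.8, 11.9, 10.7 and 12.7 TPM in the control embryos, 29.1, 22.2, 23.4 and 35.0 in the cKO embryos and 69.1, 67.9, 27.5 and 33.6 in the dKO embryos. Both mutant groups lay above control (1.11 ± 0.27 and 1.85 ± 0.27, limma adjusted p = 0.00950 and 0.00229), while Snora78 was lower in cKO and changed by -0.20 in the dKO embryos. Snhg8, the host of Snora24, was at 32.7 to 37.3 TPM in the control embryos, 39.4 to 52.0 in the cKO embryos and 45.1 to 73.0 in the dKO embryos. It was higher in cKO by 0.39 ± 0.14 (adjusted p = 0.0473), without overlap.

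Snhg15, the host of Snora9, stood at 7.40 to 8.47 TPM in the control embryos, 14.6 to 19.4 in the cKO embryos and 7.04 to 16.5 in the dKO embryos. It was higher in cKO (1.03 ± 0.20, adjusted p = 0.00341), while Snora9 was at 187 to 344, 90.7 to 252 and 117 to 246 TPM, with overlapping groups. Among protein-coding hosts, Chd8 around Snord8 changed by 0.35 in the cKO embryos (adjusted p = 0.0549) and Rpl23 around Snora21 by 0.11 in the cKO embryos and 0.06 in dKO against control. Of the 20 tested noncoding snoRNA hosts in a wider list, 9 were higher and 0 lower in cKO, where 34.3% and 1.09% of all genes were. Against control the dKO gave 6 higher and 0 lower hosts (1.79% and 3.4% of all genes), and in dKO against cKO 2 and 5 (0.612% and 38.8% of all genes). The largest changes among the called genes of that list were those of Snhg9, Snhg3, Snhg15, Snhg10 (1.35 in dKO against control, adjusted p = 0.00909) and Snhg14 (-0.99 in dKO against cKO, adjusted p = 0.00112).

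**Figure D5:**
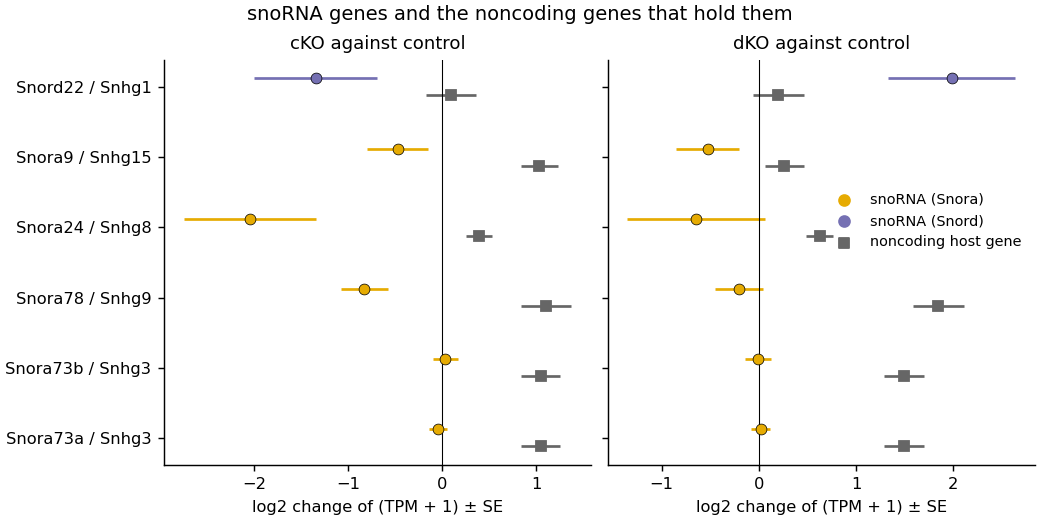
Change in log2(TPM + 1) ± SE (limma) against control for 6 snoRNAs (circles) and the noncoding genes that hold them (squares), in cKO (left) and dKO (right). Snhg3 is at 1.05 and 1.50 while Snora73a and Snora73b lie between -0.04 and 0.03.

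Genes of the snoRNA particles and of their assembly and trimming were compared from lists. None of the 4 C/D core protein genes (Fbl, Nop56, Nop58 and Snu13) and none of the 4 H/ACA core protein genes (Dkc1, Nhp2, Nop10 and Gar1) passed in any comparison by limma. In cKO against control, unadjusted p was under 0.05 for 0 and 1 of them, and their changes ranged from -0.05 to 0.14 and from -0.21 to 0.22. In dKO against control it was under 0.05 for 1 and 2, and Gar1 had the lowest change at -0.57 (adjusted p = 0.135). In dKO against cKO it was under 0.05 for 1 of each. Of 11 assembly factors tested 3 were higher in cKO (Znhit6 0.40, Pih1d1 0.38 and Ruvbl1 0.28), and 3 were lower in dKO than in cKO (Pih1d1 -0.62, Rpap3 -0.42 and Nop53 -0.38). Of 8 enzymes that free or trim snoRNAs 3 were higher in cKO, the exonucleases Xrn1 (0.36), Exosc10 (0.31) and Xrn2 (0.27), and Xrn2 was lower in dKO than in cKO (-0.45). Over all genes 34.3% were higher in cKO and 38.8% lower in dKO than in cKO, so these counts are near or below the background, and the called cKO changes are near the all-gene median of 0.25.

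Related small RNAs gave 3 calls. Terc, the telomerase RNA and an H/ACA RNA by structure, was at 34.9 to 40.8 TPM in the control embryos, 24.6 to 28.9 in the cKO embryos and 29.2 to 40.8 in the dKO embryos. It was lower in cKO by limma (-0.50 ± 0.11, adjusted p = 0.00616), without overlap, and higher in dKO than in cKO (0.30 ± 0.11, adjusted p = 0.0423). Of all genes tested 1.09% were called lower in cKO, and 0.91% lay lower without overlap. In dKO against cKO 0.612% were called higher. Rpph1, the RNA of ribonuclease P, was higher in dKO than in control (0.43 ± 0.11, limma adjusted p = 0.0347), where 1.79% of all genes were called higher. Of 9 Cajal body RNAs (Scarna genes) 6 were tested, and 0 were called in any comparison by limma. Unadjusted p was under 0.05 for 1 in cKO against control, against 48.3% of all genes. It was under 0.05 for 0 in dKO against control (20.1% of all genes) and 0 in dKO against cKO (50.9%).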

How the data were processed

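RNA from 12 embryos, 4 of each genotype, was analysed. Each embryo has a deposited table of TPM by gene symbol. No header names the unit, which was read from the values: they are fractional and sum to 1000000 in each library. Per the submitters' processing notes HISAT2 and the mm10 build were used. Which quantifier and annotation were used, and how strand and shared reads were handled, is not given in the sources used here. TPM keeps no depth, so no interval or floor is given.

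Groups come from the genotype labels. The 32 members, the gene lists and the comparisons were chosen with earlier results of these data known, and nothing here is independent of that choice. Values were analysed as log2(TPM + 1) in the 11764 genes that averaged 1 TPM or more, with limma 3.58.1 in R 4.3.3 (lmFit, eBayes with trend) and all 3 groups in 1 fit. A gene was called at a Benjamini-Hochberg adjusted p under 0.05. Adding 1 shrinks the change of low genes. The procedure was tested on simulated data with normal noise, without listed zeros or shifts of whole libraries. That test therefore does not bear on calls of genes with zeros. Positions, strands, hosts and sequences come from GENCODE M21, which held all 138 snoRNA symbols. Snora43 has more than 1 entry there. A host is a gene of the same strand whose span holds the snoRNA. Named genes are the called members, the 5 highest of each class, the precursor processing set, those next to the limit, and called genes of the lists, at most the 5 of largest change. Snora68, Snora23, Snora9 and Snora75, the members listed at 0 in most libraries, Snhg1, Chd8 and Rpl23 were named after their values were seen.

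Alternatives were a pseudocount of 0.1, no filter, a mean of at least 5 TPM, median-shift centring, rescaling to an equal protein-coding sum (factors 0.798 to 1.10), rescaling without 7SL and 7SK RNA (factors 1.78 to 2.14), fits of 2 groups, the replicate number as a block, and leaving out each embryo. Leaving out cKO 3 and 4, or control 3 and 4, was chosen after seeing the data. Plots were drawn with matplotlib 3.10.9.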

Additional observations from a re-analysis of the deposited data

Results flagged for a closer look

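In 12 of 90 sets of 4 embryos, 1 embryo stood far from the other 3: its gap to the nearest, divided by the whole range, was above Dixon's limit for 4 values. Chance flags about 1 in 20, or 4.5 sets, and in 9 of the 12 the other 3 embryos were at 0, which gives the ratio of 1 by construction. These were Snora75 in cKO (4.89 TPM in embryo 4, ratio 1) and in dKO (2.42 TPM in embryo 4, ratio 1), Snord116l9 in cKO (28.3 TPM in embryo 4, ratio 1), Snord22 in cKO (3.16 TPM in embryo 4, ratio 1), Snord23 in control and in cKO (12.04 and 11.8 TPM, each in embryo 1, ratio 1), and Snord43, Snord7 and Snord83b in dKO (10.9, 21.8 and 65.4 TPM, each in embryo 1, ratio 1). Snord118 in dKO had 1 embryo at 0 (embryo 2, ratio 0.975). Snora68 in control was high in embryo 3 (352 TPM, ratio 0.917), and Snora69 in control was low in embryo 1 (16.1 TPM, ratio 0.911).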

How the results depend on the processing

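Among the 6 genes called, Snord118 in cKO against control and Snord22 in dKO against cKO kept their calls under each alternative in which they were tested. Snord118 had no value under the filter of at least 5 TPM. Counting error entered none of these alternatives. No direction of a called gene was reversed. Of the 4 genes lower in cKO, only Snord118 kept its call without control 3 and 4. Of the 4 higher in dKO than in cKO, only Snord22 kept its call without cKO 3 and 4. The count of snoRNA genes lower in cKO, 4 in the main analysis, was 2 with no filter, 1 without cKO 3 and 4, 2 without control 3 and 4, and 2 to 5 when 1 embryo was left out; it was 2 without control 3, control 4, cKO 2 or cKO 3. The count higher in dKO than in cKO, also 4, was 2 without cKO 3 and 4 and 2 to 5 without 1 embryo, with 2 without cKO 4; the count lower was 0 to 1, with 1 without cKO 1 or dKO 1. The Snord median in cKO against control was -0.65 with a mean of at least 5 TPM and -0.926 to -0.0943 without 1 embryo, with -0.926 without cKO 1, while centring and protein-coding rescaling gave -0.45 and -0.36 for Snord and -0.62 and -0.52 for Snora genes. In dKO against cKO the Snord median was 0.51 after centring and 0.46 after protein-coding rescaling, and the Snora median 0.47, 0.42 and, without cKO 3 and 4, -0.0941. The cause of these moves was not tested. Snora24 in cKO lost its call with a pseudocount of 0.1, no filter, centring or protein-coding rescaling (adjusted p 0.0629 to 0.0974), and Snora78 with no filter (0.0582).

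With the replicate number as a block, the counts were 4 lower and 0 higher in cKO and 0 and 0 in dKO against control. In dKO against cKO they were 4 higher and 0 lower. Snora21 lost its call there (limma adjusted p = 0.0574), so the 4 include a gene not called in the main analysis. Same-numbered embryos did not deviate together (r from -0.0954 to 0.0745 across genes over 12 pairs), so the numbers were not taken to pair the embryos.

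Depth is unknown, so values near 1 TPM and listed zeros cannot be given a counting error, and Snord118 is such a gene. How reads of snoRNAs that overlap host exons, or that lie opposite another gene, were assigned is unknown.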

Other observations

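The difference between strands was also seen outside the snoRNA symbols. Of other snoRNA, scaRNA, snRNA and miscellaneous RNA genes of 94 to 238 nt, 5.28% of 1231 on the plus strand and 9.05% of 1226 on the minus strand had a mean of at least 1 TPM. Protein-coding genes with more than 1 exon had a median of 0.562 TPM on the plus strand (10277 genes) and 1.25 TPM on the minus strand (10298 genes). The 7SL RNA copies Rn7s1 on the plus strand and Rn7s2 on the minus strand were at 3927 to 9247 and 282254 to 353795 TPM, so Rn7s1 was 1.31% to 3.16% of Rn7s2.

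In the 4 libraries where both had values, Snord83b was a whole multiple of Snord43 to within 0.001. It was 22 times Snord43 in control 3, 18 in control 4, 2 in cKO 4 and 6 in dKO 1. In dKO 1 Snord43, Snord7 and Snord83b stood at 10.9, 21.8 and 65.4 TPM. Whether such steps reflect small numbers of reads was not tested. The annotation also holds 1346 genes of snoRNA type that the files list under other symbols, of which 78 had a mean of at least 1 TPM, and these are not among the 32 described.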
